A study of Rattus norvegicus with 20 samples.

Results

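A set of 10 genes of neutrophil granules and of the precursors that fill them were followed in rat blood: Mpo, Elane, Defa7, Ms4a3, Cebpe, Camp, Ltf, Lcn2, Chi3l1 and Retnlg. They were found by gene name on the array, which held 10 of the 10 members among 26263 gene names, with 1 probe for each. The blood came from 20 rats of the Wistar strain in 5 groups of 4, and each rat had an array of its own. The sham group had a sham operation. The untreated group had surgically induced reflux esophagitis, in which stomach contents flowing back inflame the esophagus, and no drug. A pair of groups with the same esophagitis received STW5, a liquid mixture of medicinal plant extracts, at 0.5 or at 2 ml/kg. The remaining group with esophagitis received omeprazole, a proton pump inhibitor that lowers gastric acid secretion, at 30 mg/kg. Each drug was given for 7 days before the operation and for 10 days after it. Age, sex and what the untreated rats were given in place of a drug are not stated in the sources used here.

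Neutrophils make their granule proteins in the bone marrow, in waves that follow maturation. Myeloperoxidase (Mpo) and neutrophil elastase (Elane) belong to the early azurophil granules, where alpha-defensins of neutrophils are also stored. Defa7 is an alpha-defensin gene, and whether its product is stored there was not tested. Ms4a3 is a membrane protein of the granulocyte and monocyte precursors of the azurophil stage. The transcription factor C/EBP epsilon (Cebpe) switches on the later wave of specific granule genes, among them cathelicidin (Camp), lactoferrin (Ltf) and lipocalin 2 (Lcn2). Messages of the early wave have mostly gone by the time a neutrophil enters the blood, so blood levels of these genes also depend on young cells leaving the marrow. In whole blood, fewer cells of a type and less RNA per cell cannot be told apart.

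The probes below are those of the members whose detection or group difference the results turn on. Each was 60 bases long and is printed 5′ to 3′ as in the scanner files, which place the probes on the rat build rn4. Capitals are not used, since no part of a probe was singled out.
Mpo: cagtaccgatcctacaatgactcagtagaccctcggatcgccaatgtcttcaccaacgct
Elane: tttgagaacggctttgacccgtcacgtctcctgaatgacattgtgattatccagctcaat
Defa7: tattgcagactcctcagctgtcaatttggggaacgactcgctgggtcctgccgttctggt
Ms4a3: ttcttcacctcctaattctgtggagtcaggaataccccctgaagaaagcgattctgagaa
Cebpe: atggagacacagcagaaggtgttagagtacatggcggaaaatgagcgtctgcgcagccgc
Ltf: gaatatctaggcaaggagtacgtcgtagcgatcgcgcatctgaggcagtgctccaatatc

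The Mpo probe lay at chr10:76094059-76094118 on the plus strand and that of Ltf at chr8:115438446-115438505 on the plus strand. On the minus strand, the Defa7 probe lay at chr16:75101509-75101568, that of Ms4a3 at chr1:214375032-214375091 and that of Cebpe at chr15:32788045-32788104. The Elane probe was placed on the minus strand at chr7:11330273-11330751, a span of 479 genomic bases for its 60 bases, so it bridges a gap between blocks of the genome. Whether the other probes lie in coding sequence or in a UTR was not analysed here. Each member's probe was set against the probes of other genes at placements where both held the same short run of bases. In these, none shared more than 31 of its 60 bases in the same places. For Defa7, whose family holds many similar genes, the nearest such probe was that of Cpeb3, with 29 identical bases. Probes of other defensins can lie in other stretches of their transcripts. Whether the Defa7 probe also matches transcripts of other defensins was therefore not tested.

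The arrays gave an intensity per spot. The level of a gene is here the log2 of its processed intensity minus the log2 of the array's 75th percentile, so a level of 0 is the 75th percentile, and levels of different probes are not set against each other. The 75th percentile ranged from 71.3 to 308 over the arrays, and 43.1% to 57.4% of probes were well above background, a flag set by the scanner software. Markers of the blood cells were present: 10 of the 10 red cell markers on the array, 16 of 20 of mature neutrophils and 8 of 10 of T cells were well above background on all 20 arrays. Cxcr1 and Mme, of the mature neutrophil list, and Cd28, of the T-cell list, were well above it on none.

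Some arrays and labels stood apart. Untreated array 1 was nearest to sham array 3 (Pearson r = 0.992 across the genes tested) and correlated with the sham arrays at a mean of 0.984, against 0.920 with the other untreated arrays. Untreated array 2 had the lowest T-cell and B-cell marker scores of all arrays. A score averages the markers of a list after each has been centred on its 20-array mean, and it was -2.43 for both lists. The titles of the arrays and the study's design text number the STW5 dose groups in opposite order, and the titles were followed here. In the authors' deposited table, each STW5 column follows an array of the other dose. Which dose a STW5 result belongs to therefore rests on the titles. Sham and untreated arrays shared 1 slide, both STW5 doses another, and the omeprazole arrays lay on a slide of their own. In each comparison of a drug with no treatment, slide and drug therefore cannot be told apart.

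Camp, Lcn2, Cebpe, Chi3l1 and Retnlg were well above background on all 20 arrays. Ms4a3 and Defa7 were so on 19, Mpo on 15 and Elane on 6, and Ltf was so on none. The levels of Ltf, from -5.82 to -3.20, are therefore only bounds, and Ltf was left out of the tests, which leaves 9 of the 10 members. Of the other azurophil granule genes, the serine proteases Prtn3 and Ctsg and the bactericidal protein Bpi were well above background on 1 array each, while Prss57, a further granule protease, was so on 18. Among the other alpha-defensins, Defa6, Defa8, Defa9 and Defa24 were well above background on none, whereas Defa10 was so on 17 and RatNP-3b on 19.

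**Figure D1:**
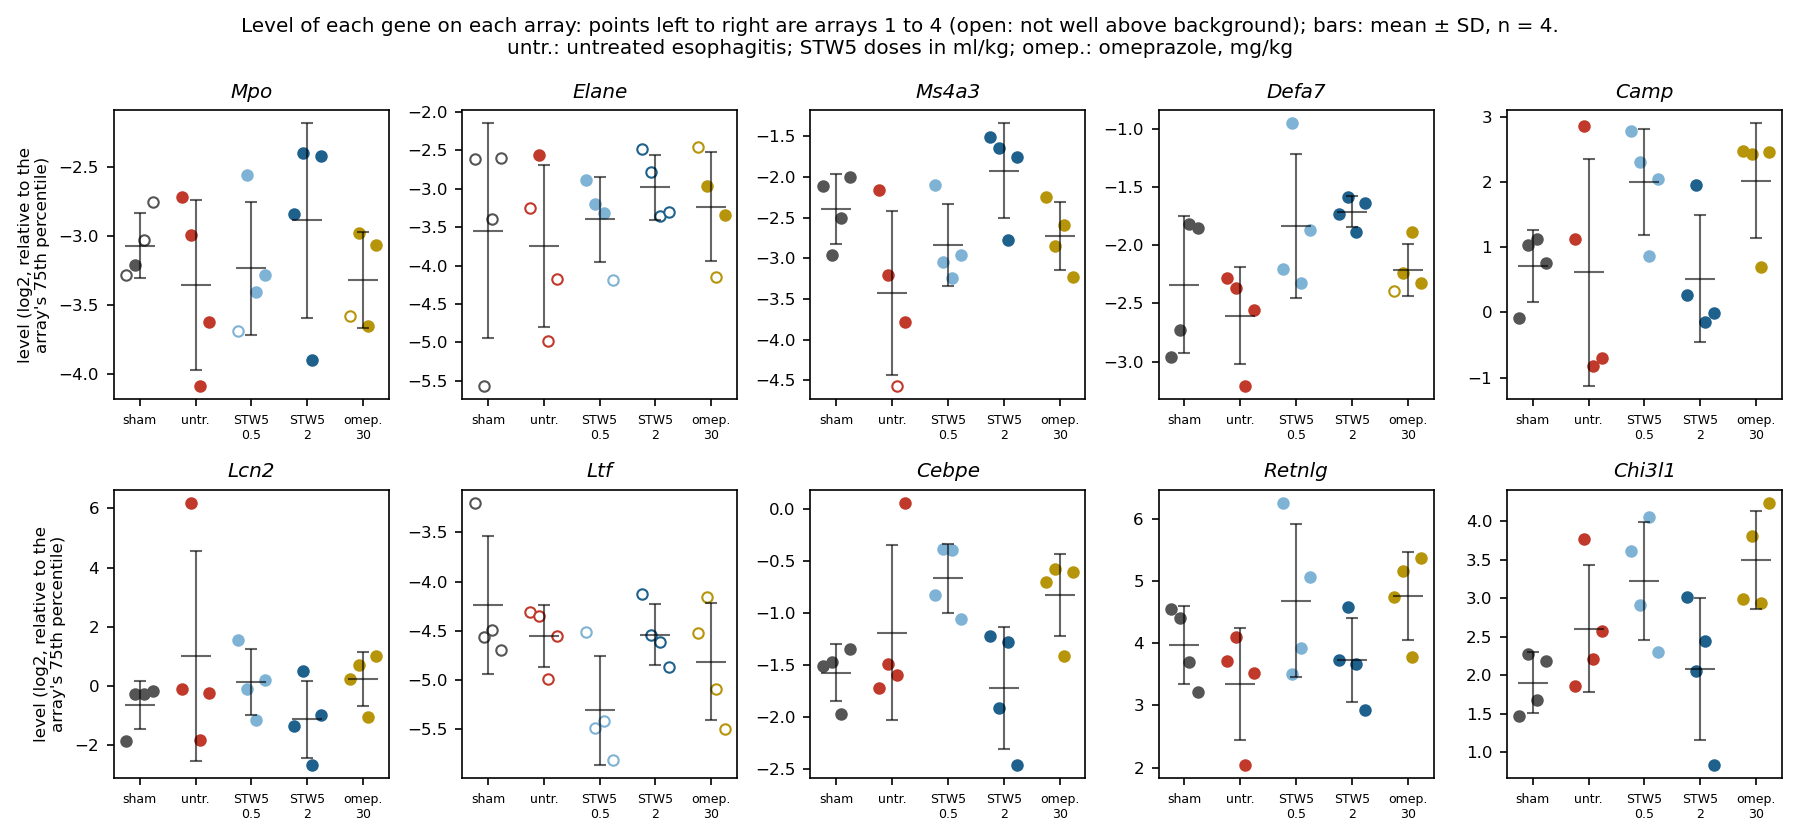
Level of each of the 10 genes (y axis, log2 relative to the 75th percentile of the array, a scale of its own in each panel) on the 4 arrays of each group (x axis). Filled points are well above background and open ones are not; bars give mean ± SD. All Ltf points are open, and the Lcn2 point at 6.19 is untreated array 2.

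Of the regulators, Cebpe ran from -1.98 to -1.35 in the sham group, with single values of -1.51, -1.47, -1.98 and -1.35 on arrays 1 to 4. In untreated rats it stood at -1.73, -1.49 and -1.60 on arrays 1 to 3 and at 0.06 on array 4. With STW5 it was at -0.83, -0.38, -0.39 and -1.06 at 0.5 ml/kg and at -1.22, -1.91, -1.28 and -2.47 at 2 ml/kg. The STW5 doses did not overlap, every 2 ml/kg array lying below every 0.5 ml/kg array. The omeprazole arrays read -0.70, -0.58, -1.41 and -0.60, so that array 3 stood alone at the sham level.

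Ms4a3, the precursor membrane protein, read -2.11, -2.96, -2.50 and -2.0 in sham rats and -2.16, -3.20, -4.57 and -3.78 in untreated rats, the value of untreated array 3 being not well above background. Under STW5 it read -2.10, -3.04, -3.24 and -2.96 at 0.5 ml/kg and -1.5, -1.65, -2.78 and -1.76 at 2 ml/kg. At 2 ml/kg, arrays 1, 2 and 4 were above every array of the other 4 groups. With omeprazole the values were -2.24, -2.85, -2.59 and -3.23, within the range of the untreated group.

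The alpha-defensin gene Defa7 read -2.28, -2.37, -3.21 and -2.56 without treatment and -1.74, -1.59, -1.89 and -1.64 at 2 ml/kg STW5. These 2 groups did not overlap, and the spread at 2 ml/kg was narrow (SD 0.13, n = 4). In sham rats it read -2.96, -2.73, -1.82 and -1.85, a range that overlaps both. At 0.5 ml/kg it read -2.20, -0.95, -2.32 and -1.87, and with omeprazole -2.39, -2.24, -1.89 and -2.32, the omeprazole value of -2.39 being not well above background. Mpo, the peroxidase that makes hypochlorous acid, spanned only -4.08 to -2.40 over all arrays, and its group means lay between -3.35 ± 0.62 (SD, n = 4) in untreated rats and -2.89 ± 0.70 (SD, n = 4) at 2 ml/kg. It was well above background on 1 sham array and on all 4 untreated ones, although its mean was higher in sham rats, at -3.07. The 75th percentile of the arrays ran from 97.8 to 173 in sham and from 124 to 266 in untreated rats. Elane was well above background on no sham array and on no array at 2 ml/kg, so comparisons with these groups give no fold. Where Elane is counted as higher or lower in them, the count uses the fitted difference of signals that were not well above background.

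Camp, the precursor of an antimicrobial peptide of specific granules, read -0.08, 1.04, 1.13 and 0.77 in sham rats. In untreated rats it was spread widely, at 1.12, 2.87, -0.82 and -0.71. It read 2.79, 2.32, 0.86 and 2.06 at 0.5 ml/kg STW5 and 0.27, 1.96, -0.15 and -0.01 at 2 ml/kg. Omeprazole arrays 1, 2 and 4 lay close together at 2.48, 2.44 and 2.47, with array 3 at 0.71. The untreated group thus held both the highest and the lowest Camp level of all 20 arrays.

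Lcn2, which binds the iron carriers of bacteria, had 1 value far from the rest: 6.19 on untreated array 2. The other untreated arrays read -0.09, -1.83 and -0.22 and the sham arrays -1.85, -0.27, -0.27 and -0.16. The STW5 arrays read 1.57, -0.09, -1.14 and 0.21 at 0.5 ml/kg and -1.35, 0.50, -2.67 and -0.99 at 2 ml/kg, and the omeprazole arrays 0.23, 0.73, -1.05 and 1.01. Without that array the range over the other 19 was -2.67 to 1.57. The same array had the highest Camp level, 2.87, and the highest mature neutrophil marker score among untreated arrays, 1.60 against -0.86 to -0.10 on the other 3.

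Retnlg, a secreted resistin-like protein of neutrophils, was lowest on untreated array 3, at 2.04, and highest on array 1 at 0.5 ml/kg STW5, at 6.25. Its group means were 3.97 ± 0.62 in sham, 3.35 ± 0.90 in untreated, 4.68 ± 1.23 and 3.73 ± 0.68 at 0.5 and 2 ml/kg STW5, and 4.76 ± 0.71 with omeprazole (SD, n = 4). Chi3l1, a chitinase-like protein stored in specific granules, had means of 1.91 ± 0.39, 2.61 ± 0.83, 3.22 ± 0.77, 2.08 ± 0.92 and 3.49 ± 0.64 in the same order (SD, n = 4). Its single arrays ran from 0.83 at 2 ml/kg STW5 to 4.24 with omeprazole.

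The first comparison, untreated esophagitis against sham, asked how these genes differ in blood with the disease. Lcn2 was 1.65 ± 1.16 (SE) higher on the log2 scale in untreated rats and Ms4a3 1.04 ± 0.42 (SE) lower, and neither passed the threshold of an adjusted p below 0.05 (limma, adjusted p = 0.383 and 0.256, n = 4 per group). Of the 9 tested members 3 were higher, 6 lower and 0 passed, with 1 at an unadjusted p below 0.05. Over all 15239 genes tested 0.00656% passed (1 gene), and 2778 had an unadjusted p below 0.05. The members' median change was -0.20, and that of all genes -0.19. Without untreated array 2, the Lcn2 difference was -0.08. Without untreated array 1, the array nearest to the sham group, Ms4a3 was lower by 1.46 and passed (adjusted p = 0.0294). In that fit 1 of the 9 members passed, and 1773 of the 15239 genes did. Array signal is the log2 of the percentile that is subtracted to give a level. With it as a covariate and all arrays kept, the Ms4a3 difference was -0.30 (limma, adjusted p = 0.71). Scaled on the spike-in probes, control RNA added in fixed amounts, it was -0.47 (limma, adjusted p = 0.464). Neither setting was combined with leaving out untreated array 1.

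Other genes of the neutrophil lists were higher in untreated rats, though none passed. Slpi, an inhibitor of neutrophil elastase found in specific granules, read 1.79, 2.44, 1.93 and 1.98 in sham rats and 1.99, 7.43, 3.97 and 7.78 in untreated rats. Its difference of 3.26 ± 0.89 (SE), 9.56-fold, had an adjusted p of 0.242 by limma. Without untreated array 1, which lay within the sham range, it was 4.36 and passed (limma, adjusted p = 0.00342). Leaving out an array within the sham range raises the difference by itself. Ctsc, the protease that activates granule serine proteases, was 1.13 ± 0.31 (SE) higher (limma, adjusted p = 0.242) and also passed without that array (1.5, adjusted p = 0.00363). Csf2rb, the shared receptor chain for GM-CSF, interleukin 3 and interleukin 5, was well above background on no sham array and on 3 untreated ones, without overlap, at least 1.74-fold higher (limma, adjusted p = 0.242). With another background correction (normexp) its direction turned, to a log2 change of -0.055. A fold given as at least sets the mean of the brighter group against the higher, on each array of the dimmer group, of the gene's own level and the lowest level of any probe well above background. Groups without overlap were found for 3.14% of all genes in this comparison and for 0 of the 9 members.

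By list, 17 of 18 mature neutrophil markers were higher in untreated rats (median 0.90) and 0 passed, as were 9 of 12 other specific and gelatinase granule genes (median 0.94), 4 of 6 other azurophil genes and 8 of 10 genes of granulocyte formation. Of the other defensin and antimicrobial genes 5 of 6 were higher (median 0.16), and of the members 3 of 9. Beside these, 8 of 9 monocyte markers were higher (median 1.26), 10 of 10 red cell markers lower (median -1.21) and 9 of 9 T-cell markers lower (median -1.27), of which 0 passed in each list. Red cell marker scores ran from 0.22 to 0.89 in sham and from -1.73 to 0.44 in untreated rats, and the part of these cell types in the members' values was not tested.

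Against untreated rats, those given omeprazole had higher Retnlg and Camp levels, by 1.42 ± 0.56 and 1.41 ± 0.69 on the log2 scale (SE, n = 4 per group), or 2.67-fold and 2.66-fold, and neither difference passed (limma, adjusted p = 0.207 and 0.332). Of the members 8 of 9 were higher, Lcn2 alone being lower, by 0.78 ± 1.16 (SE), and 0 passed. The members' median was 0.51 against 0.10 over all genes. In this comparison 4.18% of all genes passed, 637 genes of which 584 were lower, and 2367 had an unadjusted p below 0.05, as had 1 member, Retnlg. Overlap was absent for 7.26% of all genes and for 0 members. Without untreated array 2, Lcn2 was 0.95 higher and Camp 2.16 higher (adjusted p = 0.0523). Without untreated arrays 1 and 2 together, a choice made after seeing the data, Camp was 2.79 higher (adjusted p = 0.00833) and Ms4a3 1.45 higher (adjusted p = 0.0291), so that 2 members passed. In that fit 2014 of the 15239 genes passed.

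Among the other genes with the smallest p here, the ficolin Fcnb, a lectin of neutrophil and monocyte granules, was 1.14 ± 0.42 (SE) higher with omeprazole. The transcription factor Cebpb, which drives emergency granulocyte formation, was 1.21 ± 0.47 (SE) lower. Cebpa, which commits precursors to the granulocyte and monocyte lines, was 0.94 ± 0.37 (SE) higher (limma, adjusted p = 0.174, 0.195 and 0.205). Cebpb passed without untreated array 1 (-1.68, adjusted p = 0.019), and Fcnb with array signal as a covariate (1.29, adjusted p = 0.0475). In these fits 1143 and 1191 of all genes passed. Other azurophil genes were higher in 3 of 6 (median -0.03). Of the other specific and gelatinase granule genes 9 of 12 were higher (median 0.69), and of the mature neutrophil markers 15 of 18 (median 0.34), with 0 passing in either list. These lists share Mmp9 and Cd177. Of the other defensin and antimicrobial genes 2 of 6 were higher and 4 lower (median -0.16), and 0 passed. T-cell markers were higher in 9 of 9 (median 1.03) and red cell markers in 10 of 10 (median 0.74), and 1 of 9 monocyte markers passed, lower. Their part in the members' values was not tested.

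**Figure D2:**
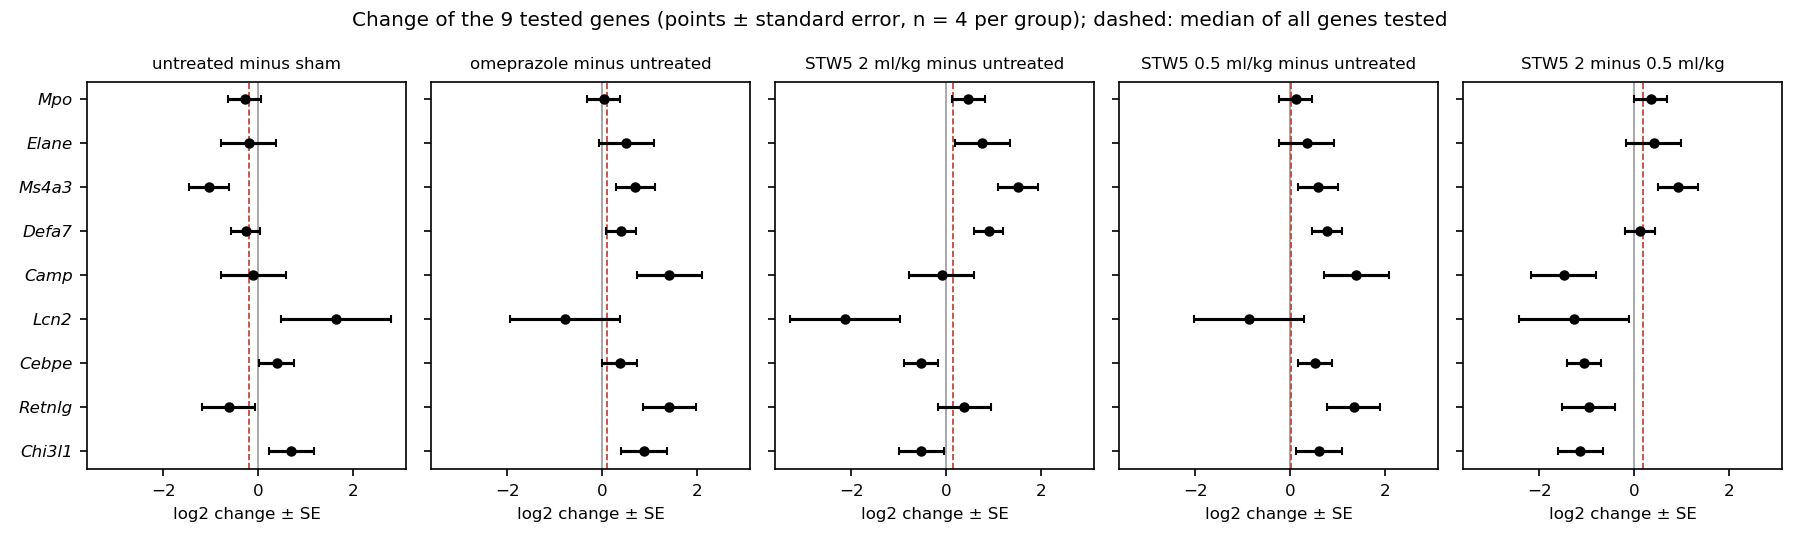
Log2 change (x axis, point ± SE) of the 9 tested genes (y axis) in the 5 comparisons, with n = 4 arrays per group. The dashed line is the median of all 15239 genes. None of the 45 changes passed, and Lcn2 has the widest error bar in each panel.

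With 2 ml/kg STW5 the largest differences from untreated rats were in Lcn2, Ms4a3 and Defa7. Ms4a3 was 1.51 ± 0.42 (SE, n = 4 per group) higher, 2.84-fold, with an adjusted p of 0.0971 by limma, the smallest of any member in any of the 5 comparisons. Defa7 was 0.89 ± 0.31 (SE) higher, 1.86-fold (limma, adjusted p = 0.117), without overlap between the groups, and Lcn2 was 2.14 ± 1.16 (SE) lower (limma, adjusted p = 0.274), or 0.41 lower without untreated array 2. Of the 9 members 5 were higher, 4 lower and 0 passed, with 2 at an unadjusted p below 0.05. Among all genes 0% passed, and 3585 had an unadjusted p below 0.05. Groups without overlap, higher at 2 ml/kg, made up 3.34% of all genes and 1 of the 9 members; in either direction they made up 4.11% of all genes.

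Arrays of these groups with the same replicate number deviated together in all 4 pairs, and with the number as a block Ms4a3 passed at the same change (limma, adjusted p = 0.0499), as 1 of the 9 members and 513 of all genes did. That pairing was read from these same data, and no label says what the number marks. Of the 4 arrays at 2 ml/kg, 1 correlated best with the untreated array of its own number. The block was fitted over all 5 groups. Ms4a3 also passed without untreated array 1 (1.93, adjusted p = 0.0154) or without array 3 at 2 ml/kg (1.79, adjusted p = 0.0434), and Defa7 passed without untreated array 1 (1.00, adjusted p = 0.0448). Over all 15239 genes, 3018 passed without untreated array 1 and 1038 without array 3 at 2 ml/kg. Without untreated arrays 1 and 2 together, Ms4a3 was 2.25 higher (adjusted p = 0.018) and Defa7 1.17 higher (adjusted p = 0.0291). In that fit 2 of the 9 members passed, and 4527 of the 15239 genes did.

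The overall signal of the arrays differed between these groups. The 75th percentile was 77.7, 71.3, 163 and 105 at 2 ml/kg and 124, 166, 266 and 222 in untreated rats. With the log2 of that percentile as a covariate, the difference was 0.47 for Ms4a3 and 0.74 for Defa7 (limma, adjusted p = 0.807 for each). When the arrays were scaled on the spike-in probes, control RNA added in fixed amounts, the median of all genes shifted to -0.87, Ms4a3 was 0.49 higher and Defa7 changed sign, to -0.12. On that scale Lcn2 and Cebpe were lower by 3.15 and 1.55 and passed (limma, adjusted p = 0.0441 and 0.0438), in a fit where 24.1% of all genes passed.

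Of the other genes, the azurophil protease Prss57 was 1.43 ± 0.43 (SE) higher at 2 ml/kg than without treatment. Cybb, the membrane subunit of the NADPH oxidase, was 1.26 ± 0.40 (SE) lower, and Ctsc was 0.83 ± 0.31 (SE) lower (limma, adjusted p = 0.0982, 0.0994 and 0.128). Without untreated array 1, Prss57 (1.80), Cybb (-1.61) and Ctsc (-1.19) passed (limma, adjusted p = 0.0164, 0.0165 and 0.0158). Without array 3 at 2 ml/kg, Prss57 and Cybb passed (limma, adjusted p = 0.0434 and 0.0484), and with spike-in scaling Cybb and Ctsc did (limma, adjusted p = 0.0373 for each). Prss57 went against most of its list: of the other azurophil genes 2 of 6 were higher and 4 lower (median -0.41), and 0 passed. Specific and gelatinase granule genes were lower in 11 of 12 (median -0.54), and mature neutrophil markers in 12 of 18 (median -0.28), with 0 passing in either list. Other defensin and antimicrobial genes were higher in 3 of 6 (median 0.11), and 0 passed. Red cell markers were higher in 10 of 10 (median 0.95), with scores from -0.40 to 1.04 at 2 ml/kg against -1.73 to 0.44 in untreated rats. Monocyte markers were lower in 8 of 9 (median -0.81). With array signal as a covariate, 10 of 10 red cell markers were lower (median -0.21, against 0.03 over all genes). The part of these cell types in the members' values was not tested.

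At 0.5 ml/kg STW5, Camp and Retnlg stood above untreated rats, the same arrays to which omeprazole was compared. The differences were 1.39 ± 0.69 for Camp and 1.34 ± 0.56 for Retnlg (SE, n = 4 per group; limma, adjusted p = 0.858 and 0.738). Defa7 was 0.77 ± 0.31 (SE) higher, and Lcn2, the only member that was lower, was 0.87 ± 1.16 (SE) lower, or 0.85 higher without untreated array 2. Of the 9 members 8 were higher and 0 passed, with a median of 0.59 against 0.02 over all genes. Here 0% of all genes passed, and an unadjusted p below 0.05 was found for 906 genes and 2 members, Defa7 and Retnlg. No member was without overlap, against 1.9% of all genes.

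Among the other genes at this dose, Fcnb was 1.02 ± 0.42 (SE) higher. The G-CSF receptor Csf3r, which receives the main growth signal for neutrophils, was 0.72 ± 0.42 (SE) higher, and Cybb 0.67 ± 0.40 (SE) lower (limma, adjusted p = 0.718, 0.954 and 0.96). Mature neutrophil markers were higher in 16 of 18 (median 0.40), and T-cell markers in 9 of 9 (median 0.96). Other azurophil genes were higher in 3 of 6 (median -0.03), and specific and gelatinase granule genes in 8 of 12 (median 0.40). Other defensin and antimicrobial genes were higher in 4 of 6 (median 0.885). Monocyte markers were higher in 4 of 9 (median -0.245), and 0 passed in each of these lists. The part of these cells in the members' values was not tested.

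Between the doses of STW5, which shared a slide, 0 of the 9 tested members passed, and the members did not all lie on the same side of 0. Camp was 1.49 ± 0.69 lower at 2 than at 0.5 ml/kg, Lcn2 1.26 ± 1.16 lower, Chi3l1 1.13 ± 0.48 lower, Cebpe 1.06 ± 0.36 lower and Retnlg 0.96 ± 0.56 lower (SE, n = 4 per group). Ms4a3 was 0.92 ± 0.42 higher, Mpo 0.35 ± 0.35 and Defa7 0.12 ± 0.31 higher (SE), differences no larger than their errors for Mpo and Defa7, and Elane, well above background on no array at 2 ml/kg, had means of -2.98 and -3.40. The signs depended on the scale. Spike-in scaling moves the change of every gene by the same amount, here taking the median of all genes from 0.18 to -1.09, and on it 9 of the 9 members were below 0. With array signal as a covariate, where the median of all genes was -0.06, 9 of the 9 were below 0 as well, and 0 passed. In the main scale adjusted p ran from 0.106 for Cebpe to 0.824 for Defa7 (limma), and 4 had an unadjusted p below 0.05. Among all genes 0% passed, and 4054 had an unadjusted p below 0.05.

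Cebpe was the only member without overlap between the doses, against 3.83% of all genes lower without overlap at 2 ml/kg and 11.2% without overlap in either direction. The members' median was -0.96, or -2.22 with spike-in scaling. On the spike-in scale 5 members passed, and so did 50.9% of all genes, all of them lower. The differences were then -2.75 for Camp, -2.40 for Chi3l1, -2.32 for Cebpe, -2.22 for Retnlg and -1.14 for Defa7 (limma, adjusted p from 0.00697 to 0.0229). With normexp 3 members passed, Chi3l1 lower and Mpo and Ms4a3 higher, beside 24.7% of all genes. Because the titles and the design text name the doses in opposite order, the sign of this comparison is that of the titles. The dose named in each comparison of STW5 with untreated rats is theirs as well.

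Specific and gelatinase granule genes were lower at 2 ml/kg in 12 of 12 (median -0.81), mature neutrophil markers in 17 of 18 (median -0.63) and genes of granulocyte formation in 7 of 10 (median -0.37), with 0 passing in each. Cebpa was well above background on no array at 2 ml/kg and on 3 at 0.5 ml/kg, at least 1.9-fold lower (limma, adjusted p = 0.0935). Its direction turned with normexp, to a log2 change of 0.25, and it passed without array 4 at 0.5 ml/kg (limma, adjusted p = 0.043). Fcnb was 1.08 ± 0.42 (SE) lower and Prss57 1.32 ± 0.43 (SE) higher (limma, adjusted p = 0.129 and 0.1). Both passed with normexp (limma, adjusted p = 0.0382 and 0.0369), and Prss57 also without array 3 at 2 ml/kg (limma, adjusted p = 0.0416). Of the other azurophil genes 2 of 6, Prss57 among them, were higher and 4 lower (median -0.27), and 0 passed. Other defensin and antimicrobial genes were higher in 2 of 6 and lower in 4 (median -0.75), and 0 passed. Mature neutrophil scores ran from -1.15 to 0.39 at 2 ml/kg and from 0.10 to 0.79 at 0.5 ml/kg. Red cell scores ran from -0.40 to 1.04 and from -1.14 to 0.34 in the same order. In the main scale 10 of 10 red cell markers were higher at 2 ml/kg (median 0.74). With array signal as a covariate 10 of 10 were lower (median -0.78). The part of these cell types in the members' values was not tested.

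**Figure D3:**
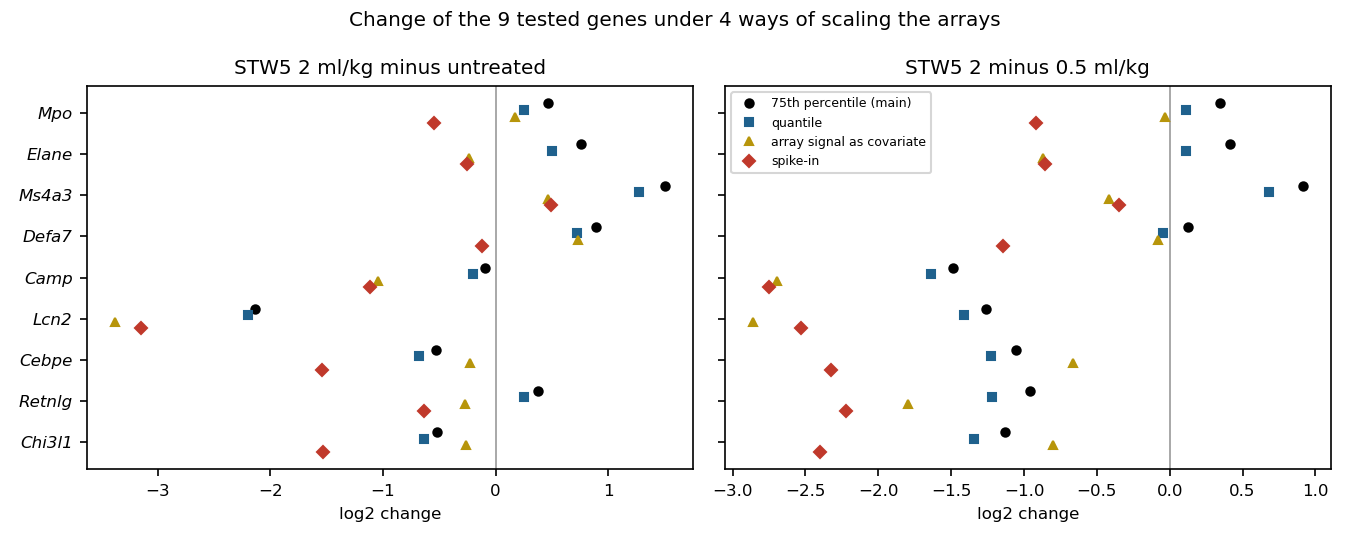
Log2 change (x axis) of the 9 tested genes (y axis) for 2 ml/kg STW5 against untreated (left) and against 0.5 ml/kg (right), under 4 ways of treating array signal. In the right panel all 9 members are below 0 with spike-in scaling, which moves every gene alike, and with array signal as a covariate, while 4 are above 0 in the main scale.

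Levels of some members varied together over the 20 arrays. Of 36 pairs among the 9 tested members, 5 passed after adjustment over the 36 (permutation test of Pearson's r, two-sided), and in these 5 the correlation was positive. Without the 2 arrays farthest from the median of the first gene of a pair, 7 passed, 4 of them among the 5. The others were Ms4a3 with Cebpe, a negative correlation (r = -0.695, adjusted permutation p = 0.0128, against -0.421 and 0.209 over all arrays), Lcn2 with Retnlg (0.730, adjusted permutation p = 0.00696, against 0.391 and 0.257) and Camp with Chi3l1 (0.600, adjusted permutation p = 0.0495, against 0.551 and 0.0591). Camp and Lcn2 had the highest correlation (r = 0.72, Spearman's rho = 0.882, adjusted permutation p = 0.00036 for each, from 1e-05, the smallest that the permutations can give). With group means removed it was 0.883 (adjusted permutation p = 0.00072), and without the 2 arrays farthest from the median of Camp it was 0.765 (adjusted permutation p = 0.00036). The arrays so left out were untreated arrays 3 and 4, with Camp at -0.82 and -0.71. Untreated array 2, with Lcn2 at 6.19, stayed in, and Pearson's r without it was not computed. Camp with Retnlg gave r = 0.718 (rho = 0.678, adjusted permutation p = 0.00558 and 0.0166) and 0.643 without the 2 extreme arrays, but within groups it was 0.596 and did not pass (adjusted permutation p = 0.124).

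Cebpe went with Chi3l1 at r = 0.701 (rho = 0.747, adjusted permutation p = 0.0078 and 0.00576), and at 0.743 without the 2 extreme arrays. Within groups it was 0.489 and did not pass (adjusted permutation p = 0.338). The correlation of Cebpe, the factor of the specific granule stage, with Camp was 0.229 and with Lcn2 0.080 (adjusted permutation p = 0.458 and 0.892). Among the early genes, Elane with Ms4a3 gave r = 0.617 (rho = 0.573, adjusted permutation p = 0.0364 and 0.0527), falling to 0.545 without the 2 extreme arrays (adjusted permutation p = 0.0786). Elane was well above background on only 6 of the 20 arrays, so most of its values here are signal that was not. Both genes also had a negative r with array signal, -0.509 for Elane and -0.849 for Ms4a3. The part of array signal in this pair was not tested. Mpo with Defa7 gave r = 0.592 (rho = 0.600, adjusted permutation p = 0.0389 and 0.0527), with 0.627 within groups (adjusted permutation p = 0.0149) and 0.580 without the 2 extreme arrays (adjusted permutation p = 0.0495). Thus 2 of the 5 pairs, Camp with Lcn2 and Mpo with Defa7, also passed within groups.

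**Figure D4:**
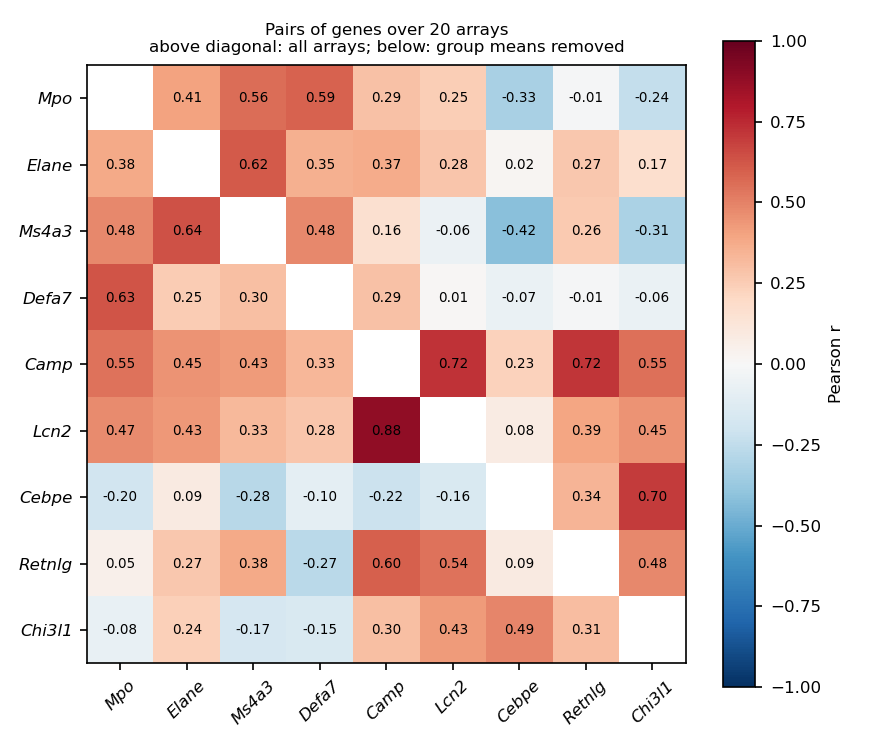
Pearson's r for each pair of the 9 tested genes over 20 arrays (colour and number), over all arrays above the diagonal and with group means removed below it. Camp with Lcn2 is highest, at 0.72 above the diagonal and 0.88 below it.

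Some members also varied with the overall signal of the array, taken as the log2 of its 75th percentile. That same value is subtracted to give a level, so a negative r can come from the subtraction alone. The permutation test does not allow for this, and the correlation was not computed for all genes. Ms4a3 was lower where the array's 75th percentile was higher (r = -0.849, rho = -0.902, adjusted permutation p = 9e-05 for each, over 9 members), also within groups (-0.869, adjusted permutation p = 9e-05) and without the 2 extreme arrays (-0.798, adjusted permutation p = 0.00054). Cebpe went the other way (r = 0.579, rho = 0.523, adjusted permutation p = 0.0341 and 0.0578), which within groups was 0.302 and did not pass (adjusted permutation p = 0.351). It was also 0.579 without the 2 extreme arrays (adjusted permutation p = 0.0539). Elane, with r = -0.509 (rho = -0.589, adjusted permutation p = 0.0622 and 0.0306), was at -0.583 within groups (adjusted permutation p = 0.0405) and -0.434 without the 2 extreme arrays (adjusted permutation p = 0.159). For Camp and Lcn2, the pair with the highest correlation, r with array signal was 0.00 and 0.02. Within groups it was -0.465 and -0.356, and neither passed (adjusted permutation p = 0.228 and 0.328). The part of array signal in the correlation of Camp with Lcn2 was not tested.

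**Figure D5:**
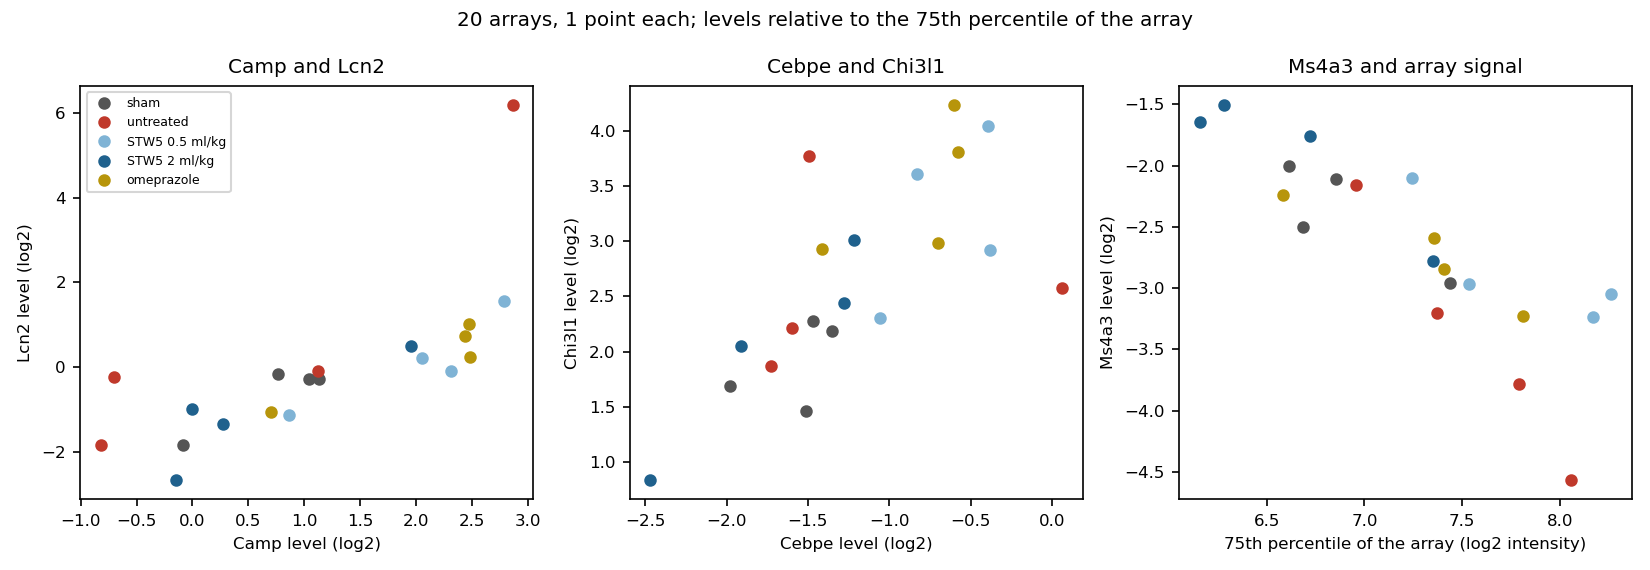
Levels of Camp and Lcn2 (left), of Cebpe and Chi3l1 (middle), and of Ms4a3 against the log2 of the array's 75th percentile (right); each point is 1 of 20 arrays, coloured by group. Ms4a3 is lower at higher array signal, at r = -0.849, where that signal is itself subtracted in the level. Untreated array 2 lies alone at a Lcn2 level of 6.19.

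The upstream sequences of Camp and Lcn2 are shown because these genes varied together most closely. They are from RefSeq, build GRCr8, on the strand of the gene, 250 bases ending at the base before the start of transcription. Camp is at chr8:118721999-118722248 and Lcn2 at chr3:36081781-36082030, both on the minus strand. Capitals mark a match to a motif.
Camp: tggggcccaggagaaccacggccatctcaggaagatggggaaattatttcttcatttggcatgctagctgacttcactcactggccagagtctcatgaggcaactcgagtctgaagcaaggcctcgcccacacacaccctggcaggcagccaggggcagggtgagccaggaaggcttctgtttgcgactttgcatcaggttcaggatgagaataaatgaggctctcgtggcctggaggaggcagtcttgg
Lcn2: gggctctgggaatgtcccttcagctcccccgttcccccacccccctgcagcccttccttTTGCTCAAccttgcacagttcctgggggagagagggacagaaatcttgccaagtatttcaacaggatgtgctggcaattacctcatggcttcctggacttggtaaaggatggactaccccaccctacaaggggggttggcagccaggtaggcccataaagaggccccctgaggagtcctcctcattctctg

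A pair of motifs was searched on both strands, TTGCNNAA for the C/EBP factors and GAGGAAGT for PU.1, a factor of myeloid cells, and no match to one overlapped a match to the other in a member. The C/EBP letters are in 9.22% of 33469 upstream sequences of this length and those of PU.1 in 2.04%. Among the 8 members with a sequence in the table, Lcn2 alone held the C/EBP letters, as TTGCTCAA from 191 to 184 bases before the start, and Ms4a3 alone those of PU.1, from 100 to 93 bases before it. A match is a description of the letters and not a binding site.

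A group of 5 genes outside the 10 varied most like the mean of the members over the 20 arrays, among 10858 tested genes with a symbol. Cd177, a surface protein of neutrophils that is also stored in specific granules, was closest (r = 0.889, 0.899 within groups). The interferon-induced membrane protein family gene Ifitm6 followed (0.863, 0.881 within groups), then S100a9, a subunit of calprotectin (0.856, 0.825 within groups), Hmgcll1 (0.853, 0.862 within groups) and Mettl9 (0.840, 0.855 within groups). Cd177 ranged in group mean from -2.51 ± 1.46 (SD, n = 4) at 2 ml/kg STW5 to -0.58 ± 1.38 (SD, n = 4) with omeprazole, and Hmgcll1 was well above background on no sham array. These correlations are given as a description, since the genes were picked as the highest of many and share the arrays and their signal. The mean of the members itself, as level minus each gene's mean, was highest on untreated array 2, at 1.00, and lowest on untreated array 3, at -1.35, so the widest spread lay within the untreated group.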

How the data were processed

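Per the labels, blood was drawn into RNA-stabilising tubes, and total RNA was labelled with Cy3 for 1-colour Agilent arrays. The deposited scanner files give an intensity for each spot, which Agilent Feature Extraction (version 10.7.3.1, per the file headers and the submitters' processing notes) had background-subtracted and detrended without scaling between arrays. The authors' deposited table holds a ratio, processed signal over the array's median: 12 columns follow their own array and 8, those of STW5, the array of the other dose.

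Levels were averaged over a probe's spots. A probe entered if 4 or more arrays had it well above background, and the brightest probe stood for a gene (15239 genes). A model of 5 group means was fitted to 20 arrays with limma 3.58.1 in R 4.3.3, with two-sided p values and Benjamini-Hochberg adjustment over all genes; adjusted p values without "permutation" are from it. Only 4 arrays per group limit the precision. The fit was tested on simulated data. Correlations used 1e+05 permutations.

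Replicate numbers of the titles were checked as pairs by correlating deviations from group means. For 2 ml/kg STW5 against untreated all 4 same-numbered pairs lay above 0.1 (0.188 to 0.488), so they were taken as paired, from the data and not from the design, and 1 of 4 arrays correlated best with its own number. In the other comparisons this did not hold.

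The members, the other lists (granule, antimicrobial, granulocyte formation and blood cell markers) and the tests were chosen with earlier results of these data known. Named were all members, the 3 genes of the other granule, antimicrobial and granulocyte formation lists with the smallest p in a comparison, and the 5 genes most like the members' mean. Of 30367 probes 21220 were named through the RefSeq table (GRCr8), and the others kept the file's name. Alternatives were normexp, quantile and spike-in scaling, other filters and probes, blocks, array signal as a covariate and arrays left out.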

Additional observations from a re-analysis of the deposited data

Results flagged for a closer look

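In 4 of 45 sets of 4 arrays, a set being 1 tested gene in 1 group, a single array lay far from the other 3: its gap to the nearest array, divided by the whole range, exceeded Dixon's critical value for sets of 4. Chance gives this in about 1 of 20 such sets. For Lcn2, sham array 1 was low, at -1.85 against -0.27 for the nearest array (gap over range 0.936). For Cebpe, untreated array 4 was high, at 0.06 against -1.49 (0.869), and omeprazole array 3 low, at -1.41 against -0.70 (0.856). For Camp, omeprazole array 3 was low as well, at 0.71 against 2.44 (0.975). Lcn2 on untreated array 2, the highest level of that gene, did not exceed that value (0.783).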

How the results depend on the processing

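Signs and calls of members that changed under another setting, and signs of the other named genes, are given here as log2 changes or counts of members passing, and their cause was not tested. Spike-in scaling moves all genes of a comparison alike, so its turned signs follow from that shift: the median of all genes went from -0.19 to 0.37 for untreated against sham, from 0.14 to -0.87 for 2 ml/kg against untreated and from 0.18 to -1.09 for 2 against 0.5 ml/kg. Values of Elane against sham or at 2 ml/kg are fitted differences of signals not well above background in those groups, and no folds. With spike-in scaling 2 members passed for 2 ml/kg against untreated and 5 for 2 against 0.5 ml/kg, in place of 0, and the sign turned for untreated against sham in Camp (0.46), Defa7 (0.30), Elane (0.37) and Mpo (0.28), for 2 ml/kg against untreated in Defa7 (-0.12), Elane (-0.25), Mpo (-0.55) and Retnlg (-0.64), for 2 against 0.5 ml/kg in Defa7 (-1.14), Elane (-0.85), Mpo (-0.92) and Ms4a3 (-0.35). With array signal as a covariate the sign turned for untreated against sham in Camp (0.57) and Elane (0.51), for omeprazole against untreated in Mpo (-0.047), for 2 ml/kg against untreated in Elane (-0.24) and Retnlg (-0.27), for 2 against 0.5 ml/kg in Defa7 (-0.078), Elane (-0.87), Mpo (-0.032) and Ms4a3 (-0.41). With normexp 3 members passed for 2 against 0.5 ml/kg, and the sign turned for untreated against sham in Camp (0.042) and Csf2rb (-0.055), for 0.5 ml/kg against untreated in Elane (-0.015) and Mpo (-0.023), for 2 against 0.5 ml/kg in Cebpa (0.25). Quantile normalization turned the sign for omeprazole against untreated in Mpo (-0.024), for 2 against 0.5 ml/kg in Defa7 (-0.049), and the 75th percentile over probes above background on all arrays turned it for 2 against 0.5 ml/kg in Defa7 (-0.055). Without the filter on dim probes 1 member, Cebpe, passed for 2 against 0.5 ml/kg (limma, adjusted p = 0.0499). In the authors' deposited values, whose STW5 columns follow the other dose, signs turned for 2 ml/kg against untreated in Camp (1.46), Cebpe (0.59) and Chi3l1 (0.68), for 0.5 ml/kg against untreated in Camp (-0.18), Cebpe (-0.61), Chi3l1 (-0.61) and Fcnb (-0.15), for 2 against 0.5 ml/kg in Camp (1.64), Cebpa (1.34), Cebpe (1.21), Chi3l1 (1.28), Elane (-0.26), Fcnb (1.24), Lcn2 (1.42), Mpo (-0.20), Ms4a3 (-0.77), Prss57 (-1.17) and Retnlg (1.11). Exchanging the doses turned signs for 2 ml/kg against untreated in Camp (1.39), Cebpe (0.52) and Chi3l1 (0.61), for 0.5 ml/kg against untreated in Camp (-0.097), Cebpe (-0.53), Chi3l1 (-0.52) and Fcnb (-0.064). Without untreated arrays 1 and 2 together, 1 member passed for untreated against sham, 2 for omeprazole and 2 for 2 ml/kg against untreated, and the sign turned for untreated against sham in Lcn2 (-0.39), for omeprazole against untreated in Cebpe (-0.055) and Lcn2 (1.26), for 2 ml/kg against untreated in Camp (1.28), for 0.5 ml/kg against untreated in Lcn2 (1.17). With the replicate block 1 member, Ms4a3, passed for 2 ml/kg against untreated (limma, adjusted p = 0.0499), and no other member's call changed. In the other comparisons the numbers were not taken as pairs, with same-number correlations from -0.44 to 0.58. Of the 5 pairs of members that passed, counted within groups 2 passed. Leaving out 1 array at a time, members passing ranged from 0 to 1 for untreated against sham and from 0 to 2 for 2 ml/kg against untreated, and the sign turned for untreated against sham in Camp (-0.85 to 0.38), Cebpe (-0.029 to 0.57), Elane (-0.87 to 0.21) and Lcn2 (-0.078 to 2.60), for omeprazole against untreated in Lcn2 (-1.73 to 0.95) and Mpo (-0.21 to 0.25), for 2 ml/kg against untreated in Camp (-0.58 to 0.65) and Retnlg (-0.055 to 0.65), for 0.5 ml/kg against untreated in Elane (-0.065 to 0.74), Lcn2 (-1.82 to 0.85) and Mpo (-0.12 to 0.33), for 2 against 0.5 ml/kg in Defa7 (-0.037 to 0.42).

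Without untreated arrays 1 and 2 together Cebpb also passed for omeprazole, Prss57, Cybb and Ctsc for 2 ml/kg against untreated, and Slpi and Ctsc for untreated against sham (limma, adjusted p from 0.00647 to 0.0437). Between the doses, Cebpa and Prss57 passed without the filter (limma, adjusted p = 0.0473 for each), and Cebpa and Fcnb with spike-in scaling (limma, adjusted p = 0.00697 and 0.00735).

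Over all genes, calls for 2 against 0.5 ml/kg went from 0 to 3761 with normexp, 7762 with spike-in scaling, 5378 without the filter, 529 with the replicate block and 68 in the authors' values. For 2 ml/kg against untreated they went from 0 to 3673 with spike-in scaling (7 higher), 513 with the replicate block and 1 with the percentile of probes detected everywhere. For omeprazole they went from 637 (53 higher) to 404 (28 higher) with spike-in scaling, 1191 (199 higher) with array signal as a covariate and 382 (9 higher) with the groups compared alone. For 0.5 ml/kg against untreated they went from 0 to 1 with array signal as a covariate and 2 in the authors' values. Without untreated array 1, the counts were 1773 for untreated against sham, 1143 for omeprazole and 3018 for 2 ml/kg. Without array 3 at 2 ml/kg they were 1038 against untreated and 807 between the doses, where they were 228 and 144 without array 1 or 4 at 0.5 ml/kg. For 0.5 ml/kg against untreated they were 5 without untreated array 1 or 3. Without untreated arrays 1 and 2 together they were 4339 for untreated against sham, 2014 for omeprazole and 4527 for 2 ml/kg. Signal over background limits Ltf, Elane and Mpo, which were dim on many arrays. Beside these, 442 of the values with 1 array left out and 606 under the other settings kept their sign and call.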
